A study of Mus musculus with 18 samples.

Results

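The cullins and the neddylation machinery that acts on them were examined as a set of 32 genes. These were among 55487 genes counted in adipose tissue of Csn8AKO and Ctrl mice. The set was chosen by name and by known role and not by any measured value, though with earlier results of these data known. The 32 genes are 8 cullins, 6 RING and adaptor subunits, 5 genes for NEDD8 and its E1 and E2 enzymes, 5 DCN1-like co-E3 proteins, 5 exchange factors, proteases and inhibitors, and 3 substrate receptors. In Csn8AKO mice, Cre recombinase driven by the adiponectin promoter deletes exons 4 to 6 of Csn8, which is named Cops8 in the files, so that the deletion is confined by design to adipocytes while the other cells of the depot keep the gene. The Ctrl mice carry the same floxed Csn8 alleles without Cre. The mice, all male and killed after a 4 h fast, gave RNA from subcutaneous white adipose tissue (sWAT) at 12 weeks of age (4 Ctrl and 4 Csn8AKO libraries) and from brown adipose tissue (BAT) at 4 weeks of age (5 Ctrl and 5 Csn8AKO libraries), 18 libraries in all. Tissue and age changed together and cannot be told apart.

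Cullins are the scaffolds of the largest family of ubiquitin ligases, the cullin-RING ligases (CRLs). A cullin holds a RING protein, which recruits the ubiquitin-carrying E2 enzyme, at its C-terminal end, and an adaptor with a substrate receptor at its N-terminal end. The ligase is switched on when the ubiquitin-like protein NEDD8 is attached to a conserved lysine of the cullin by a cascade of an E1 enzyme, an E2 enzyme and a co-E3 protein, and it is switched off when the COP9 signalosome (CSN), of which CSN8 is a subunit, removes NEDD8 again. The exchange factor CAND1 then binds the bare cullin and allows another substrate receptor to be loaded. In fat, cullin ligases set the amount of many signalling proteins and transcription factors, among them the antioxidant factor NRF2, which is the substrate of the CUL3 ligase with KEAP1. RNA counts measure the transcripts of these genes and say nothing of how much of each cullin carries NEDD8.

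The lysine that receives NEDD8 is shown first, because it is the site on which the cascade and the CSN act. It was found by a search of the coding sequences of the 8 cullins for codons that read isoleucine, methionine, lysine, any residue, arginine, lysine. Cul1, Cul2, Cul3, Cul4a, Cul4b and Cul5 each held 1 match, in the last exon of Cul5 and in the next to last exon of the other 5 genes. Cul7 and Cul9 held 0 matches, which says only that these letters are not in the annotated coding sequence. The 30 bases around the match are given below from the GENCODE M21 transcripts of build GRCm38, in coding direction, with the lysine codon in capitals.
Cul1 (codon 720, exon 21 of 22, chr6:47524523-47524552, plus strand): atcgtgagaatcatgAAAatgaggaaggtc
Cul3 (codon 712, exon 15 of 16, chr1:80269237-80269266, minus strand): atagtgcgaataatgAAGtctaggaagaag
Cul4a (codon 705, exon 19 of 20, chr8:13144343-13144372, plus strand): atagtcagaataatgAAAatgaggaagaca
Cul4b (codon 916, exon 22 of 23, chrX:38537179-38537208, minus strand): atcgttcgaattatgAAGatgagaaaaaca
Cul5 (codon 799, exon 19 of 19, chr9:53617975-53618004, minus strand): atcatacaaataatgAAAatgagaaagaaa
Between these 5 windows, 20 to 24 of the 30 bases were identical in each pair. Cul1 and Cul4a shared 24, and the paralogs Cul4a and Cul4b shared 23. All reads of a gene entered its count, so the counts below are of whole cullin genes and not of this site.

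The libraries held 15835721 to 66719937 counted reads. Ribosomal RNA genes took 0.863% to 47.8% of them, with overlapping ranges in Ctrl and Csn8AKO mice of each tissue. Every one of the 32 genes was measured above the filter on low counts in both tissues. The targeted gene, Cops8, was counted in all libraries. The counts are of the whole gene and of all cells of the depot, so the deletion of exons 4 to 6 could not be checked from them. In sWAT it stood at 33.9, 36.2, 34.8 and 35.0 CPM (the count scaled to a common library size) in Ctrl mice and at 33.0, 29.2, 30.7 and 36.0 CPM in Csn8AKO mice, a log2 fold change of -0.12 ± 0.11 (SE) with an adjusted p of 0.623. In BAT it stood at 36.5, 39.0, 40.1, 37.1 and 44.6 CPM in Ctrl mice and at 28.2, 29.7, 34.5, 31.4 and 36.9 CPM in Csn8AKO mice, a log2 fold change of -0.30 ± 0.09 with an adjusted p of 0.0211. The Cops8 groups overlapped in both tissues, by 1 library in BAT. Here and below, the adjusted p is that of edgeR's quasi-likelihood test after Benjamini-Hochberg adjustment over all genes tested, a gene is called at an adjusted p under 0.05, the log2 fold change is that of Csn8AKO over Ctrl, and CPM are scaled by TMM factors within the tissue.

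In sWAT, none of the 32 genes was called between genotypes. The count was 0 of 32 by edgeR, by DESeq2 and by limma voom, and 3, 3 and 4 of the 32 had an unadjusted p under 0.05 by these tools. By edgeR and limma voom, 3838 and 4984 of all 18843 genes tested had such a p, so these counts are no result about the set. Of all 18843 genes tested, 1000 (5.31%) were called, 43.4% of them higher in Csn8AKO mice (24.4% with libraries scaled by size alone). The log2 fold changes of the 32 genes ran from -0.46 to 0.68, with a median of -0.10 against 0.03 over all genes tested, and their smallest adjusted p was 0.170. The 95% interval lay within a 2-fold change in either direction, which is 1 on the log2 scale, for 31 of the 32 genes, the exception being Skp2. Over all genes tested the interval was that narrow for 54.9%.

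Among the cullins in sWAT, the log2 fold changes ran from -0.32 to 0.00, and 0 of 8 were called. Cul9, the scaffold also known as PARC, had the largest, with 67.8, 82.3, 72.5 and 74.4 CPM in Ctrl mice and 55.3, 45.7, 69.1 and 67.8 CPM in Csn8AKO mice. Its log2 fold change was -0.32 ± 0.15 with an adjusted p of 0.271, and the groups overlapped. Cul1, the scaffold of the SCF ligases, had a log2 fold change of 0.00 with a 95% interval of -0.31 to 0.31. Of the RING and adaptor subunits, Rbx1, which recruits the E2 enzyme to most cullins, had the largest value at -0.13 ± 0.12 (adjusted p of 0.624), from 31.5, 33.4, 31.3 and 29.4 CPM in Ctrl mice and 32.5, 28.6, 28.8 and 25.4 CPM in Csn8AKO mice.

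In the NEDD8 cascade of sWAT, Nedd8 itself stood at 35.9, 42.8, 26.9 and 38.6 CPM in Ctrl mice and at 55.6, 36.1, 47.5 and 49.1 CPM in Csn8AKO mice. The log2 fold change was 0.38 ± 0.18 with an adjusted p of 0.253, and 1 Csn8AKO library lay within the Ctrl range. Ube2f, the NEDD8 E2 enzyme that works with RNF7 on CUL5, stood at 26.8, 28.1, 27.1 and 27.8 CPM in Ctrl mice and at 31.5, 34.5, 32.1 and 35.7 CPM in Csn8AKO mice. Its 2 groups did not overlap, which held for 1 of the 32 genes (3.13%) against 14.0% of all genes tested, but its log2 fold change of 0.29 ± 0.11 did not pass the test, with an adjusted p of 0.170. Dcun1d4, a DCN1-like protein that helps to transfer NEDD8, stood at 18.2, 25.3, 24.6 and 21.2 CPM in Ctrl mice and at 16.4, 11.9, 15.3 and 21.5 CPM in Csn8AKO mice, a log2 fold change of -0.46 ± 0.19 with an adjusted p of 0.218. Senp8, the protease that matures NEDD8 and removes it from proteins other than cullins, had a value of -0.32 ± 0.29 (adjusted p of 0.594), from 4.16, 4.00, 2.67 and 3.79 CPM in Ctrl mice and 4.21, 2.58, 1.86 and 2.99 CPM in Csn8AKO mice. Skp2, the F-box receptor of the cell cycle inhibitor p27, had the largest value of all 32, at 6.06, 3.49, 3.73 and 5.30 CPM in Ctrl mice and 6.25, 8.83, 9.31 and 5.46 CPM in Csn8AKO mice. The log2 fold change of Skp2 was 0.68 ± 0.26 with a 95% interval of 0.10 to 1.26 and an adjusted p of 0.172, and its groups overlapped.

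Markers of adipocytes and macrophages were among the genes called in sWAT. The summed CPM of 10 adipocyte markers ran from 21317 to 28801 in Ctrl mice and from 6988 to 17585 in Csn8AKO mice, with 0 markers called higher and 4 called lower, and that of 10 macrophage markers from 944 to 1318 and from 1593 to 2820, with 7 called higher and 0 called lower. The groups did not overlap in either sum, with an exact two-sided permutation p of 0.0286 for each, the smallest that 4 against 4 libraries allow (0.124 after adjustment over 13 library measures). None of the markers in these 2 lists was near 0, and their part in the values above was not tested. Ctrl replicate 1 and Csn8AKO replicate 2 had the most T cell markers, with summed CPM of 268 and 345 against 10.1 to 34.9 in the other 6 libraries. Without these 2 libraries, 0 of the 32 genes were called, and 3 had an unadjusted p under 0.05. Of all 18547 genes tested in that fit, 1820 were called and 4521 had an unadjusted p under 0.05. In RNA from whole tissue, fewer cells of a type and less RNA per cell cannot be told apart.

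**Figure D1:**
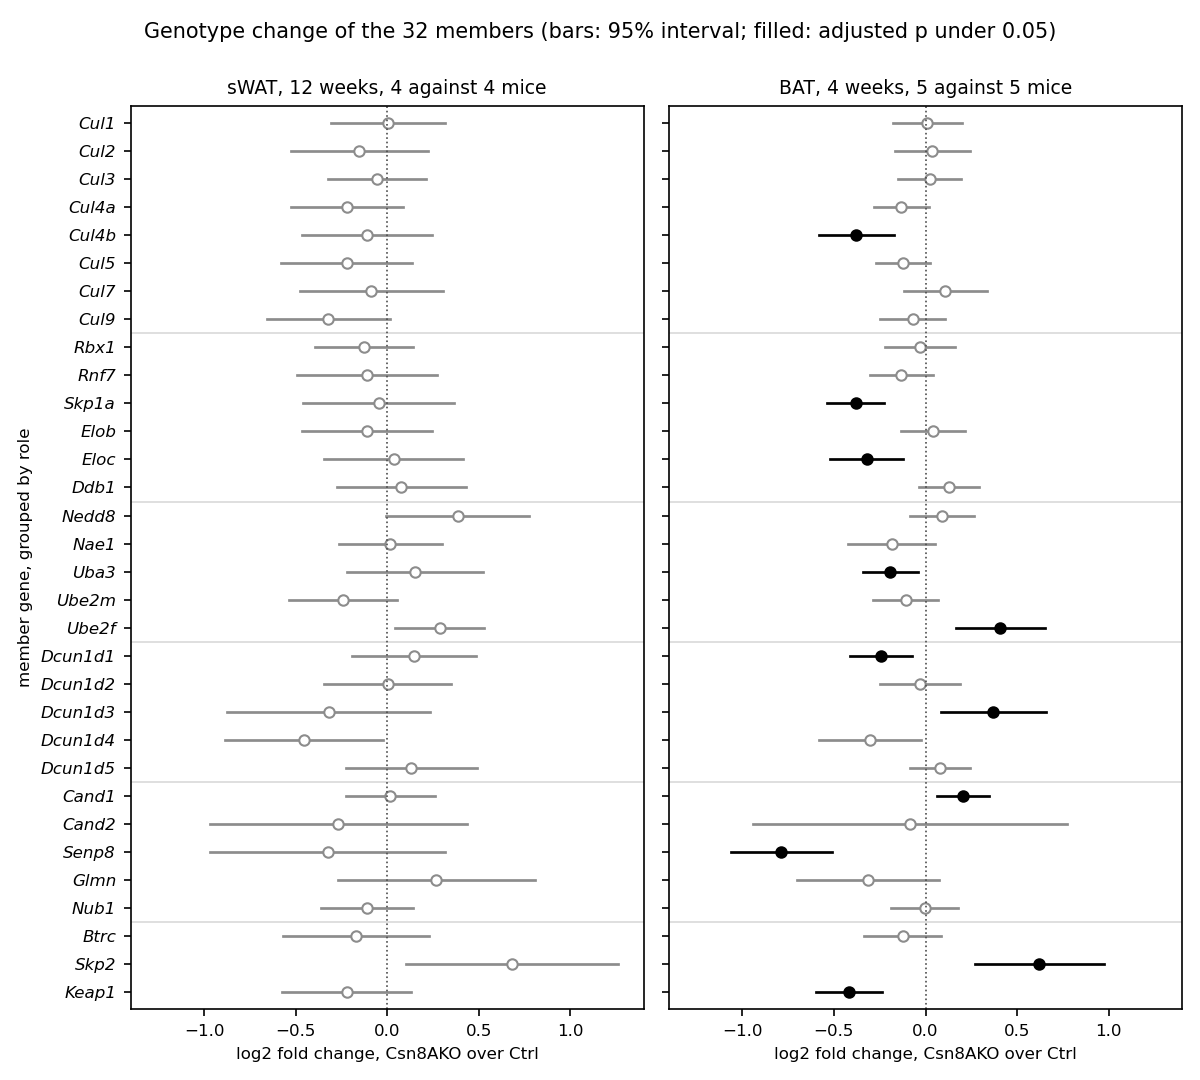
Log2 fold change of Csn8AKO over Ctrl (x axis) for each of the 32 genes (y axis, grouped by role, with lines between the groups) in sWAT and BAT, with bars for the 95% interval and filled points for an adjusted p under 0.05. All 32 points of sWAT are open, whereas 11 points of BAT are filled, 7 of them to the left of 0 and 4 to the right.

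In BAT, 11 of the 32 genes were called between genotypes (34.4%), where 7121 of all 22345 genes tested were called (31.9%). The share of the set was thus near the share of all genes and is no result about the set. Senp8, Keap1, Skp1a, Cul4b, Eloc, Dcun1d1 and Uba3 were lower in Csn8AKO mice, which is 21.9% of the 32 genes against 15.8% of all genes. Skp2, Ube2f, Dcun1d3 and Cand1 were higher, which is 12.5% against 16.0%. The roles below hold 3 to 8 genes each. Their counts of called genes are too small to set against these shares and are no result about a role. The log2 fold changes of the set ran from -0.79 to 0.62 with a median of -0.08, against 0.01 over all genes tested, and the groups did not overlap for 5 of the 32 genes (15.6%) against 21.0% of all genes. With libraries scaled by size alone, the median of all genes moved from 0.01 to 0.14. In that fit 5 of the 32 genes were called, 4 higher and 1 lower, where 6270 of all 22345 genes were called. The genes higher in Csn8AKO mice went from 50.3% to 66.7% of all calls.

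Of the cullins in BAT, 1 of 8 fell, where 15.8% of all genes did. Cul4b (ENSMUSG00000031095, chrX:38533274-38576196), the X-linked scaffold that pairs with DDB1, stood at 47.7, 45.2, 40.6, 41.1 and 40.1 CPM in Ctrl mice and at 33.9, 40.3, 30.7, 32.04 and 28.3 CPM in Csn8AKO mice. Csn8AKO replicate 2 lay just above the lowest Ctrl library, and the other 4 Csn8AKO libraries lay below all Ctrl libraries. The log2 fold change was -0.38 ± 0.10 with an adjusted p of 0.00788. For its paralog Cul4a the value was -0.13 ± 0.07 (adjusted p of 0.169), with a mean of 119 ± 3.52 CPM (SD, n = 5) in Ctrl mice and 108 ± 6.74 CPM in Csn8AKO mice. The other 6 cullins had log2 fold changes between -0.12 and 0.11. Cul1, Cul2 and Cul3, the scaffolds of the SCF, VHL and BTB ligases, had values of 0.01, 0.04 and 0.02, and the 95% intervals of these 3 genes together spanned -0.18 to 0.24.

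Since a share within a library does not depend on how libraries are scaled, the cullins were also expressed as percentages of their summed CPM per kilobase of exon. In BAT, Cul4b made up 11.9% ± 0.682 (SD, n = 5) of the cullin transcripts in Ctrl mice, with libraries from 11.1% to 12.8%. In Csn8AKO mice it made up 9.47% ± 0.729 (SD, n = 5), from 8.69% to 10.4%. These ranges did not overlap. In sWAT the Cul4b share was 11.0% ± 0.509 and 10.9% ± 1.18 (SD, n = 4 each). Cul1, Cul3 and Cul4a were the 3 most abundant cullins per kilobase in each of the 4 groups, each with a mean share between 16.1% and 22.1%, and Cul5 held the smallest, 4.95% to 6.85%, although Cul5 differed from Cul2 and Cul9 in sWAT by less than their SDs. The sum over the 8 cullins was 96.5 ± 4.05 CPM per kilobase in BAT Ctrl mice and 91.7 ± 7.08 in BAT Csn8AKO mice (SD, n = 5 each), with overlapping ranges. No test was run on shares or sums, and the order of the cullins depends on the exon lengths used.

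**Figure D2:**
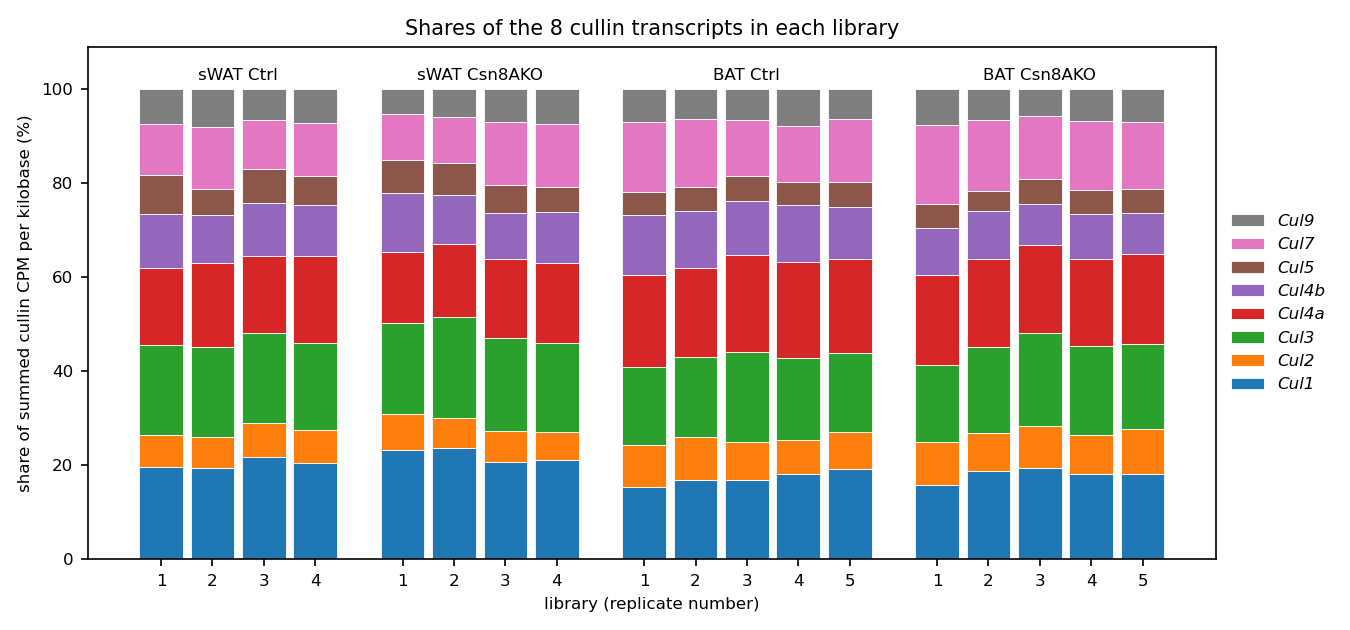
Share of each of the 8 cullins in the summed cullin CPM per kilobase of exon (y axis, %) for each of the 18 libraries (x axis, replicate numbers within the 4 groups). The Cul4b segment covers 8.69% to 10.4% in BAT Csn8AKO libraries against 11.1% to 12.8% in BAT Ctrl libraries.

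Of the RING and adaptor subunits in BAT, 2 of 6 fell and none rose, where 15.8% and 16.0% of all genes did. Skp1a (ENSMUSG00000036309, chr11:52231995-52246858), which links F-box receptors to CUL1, stood at 107, 99.2, 103, 89.4 and 101.04 CPM in Ctrl mice and at 75.6, 80.6, 80.8, 75.6 and 70.6 CPM in Csn8AKO mice. Each Csn8AKO library lay below each Ctrl library, and the log2 fold change was -0.38 ± 0.07 with an adjusted p of 0.00118. Eloc (ENSMUSG00000079658, chr1:16641725-16657042), the elongin that joins receptors to CUL2 and CUL5, stood at 25.9, 23.8, 24.8, 20.96 and 24.6 CPM in Ctrl mice and at 19.2, 22.6, 19.1, 18.4 and 16.9 CPM in Csn8AKO mice. Csn8AKO replicate 2 lay within the Ctrl range, and the log2 fold change was -0.32 ± 0.09 with an adjusted p of 0.0176. That call was lost without Csn8AKO replicate 4 (adjusted p of 0.0510) or replicate 5 (0.0526). Elob, the elongin that pairs with ELOC, had a log2 fold change of 0.04 ± 0.08, and the ratio of Elob to Eloc per kilobase ran from 5.05 to 6.24 in Ctrl libraries and from 7.11 to 7.87 in Csn8AKO libraries. In sWAT this ratio ran from 5.66 to 7.89 in Ctrl and from 5.56 to 7.08 in Csn8AKO libraries, with overlap. The ratio of Elob to Eloc was not tested. For Rbx1 and Rnf7, the RING proteins, the values were -0.03 ± 0.09 and -0.13 ± 0.08. Ddb1, the adaptor of the CUL4 ligases, had groups that did not overlap, with 306 to 341 CPM in Ctrl mice and 348 to 382 CPM in Csn8AKO mice, but its log2 fold change of 0.13 ± 0.08 did not pass the test (adjusted p of 0.233).

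Of NEDD8 and its E1 and E2 enzymes in BAT, 1 of 5 rose and 1 of 5 fell, where 16.0% and 15.8% of all genes did. Ube2f (ENSMUSG00000034343, chr1:91250304-91290337) stood at 38.5, 42.0, 48.6, 41.8 and 48.4 CPM in Ctrl mice and at 44.1, 64.1, 70.0, 55.8 and 57.3 CPM in Csn8AKO mice. Csn8AKO replicate 1 lay within the Ctrl range and the other 4 lay above it. The log2 fold change was 0.41 ± 0.11 with an adjusted p of 0.0136. Ube2m, the E2 enzyme that works with RBX1 on the other cullins, had a value of -0.11 ± 0.08 (adjusted p of 0.353). The ratio of Ube2f to Ube2m per kilobase ran from 0.0783 to 0.0978 in BAT Ctrl libraries and from 0.113 to 0.153 in BAT Csn8AKO libraries, and from 0.102 to 0.130 and from 0.151 to 0.205 in sWAT. The ratio was singled out after its values were seen and was not tested. Uba3 (ENSMUSG00000030061, chr6:97183670-97205647), the catalytic subunit of the NEDD8 E1 enzyme, stood at 48.1, 43.3, 50.3, 45.0 and 45.5 CPM in Ctrl mice and at 38.3, 43.5, 41.1, 40.2 and 40.1 CPM in Csn8AKO mice. The Uba3 groups overlapped by 1 library, and the log2 fold change of -0.19 ± 0.07 passed the test by little, with an adjusted p of 0.0475. In 8 of 10 fits that each left out 1 library the Uba3 call was lost, with an adjusted p of up to 0.120, the exceptions being those without Ctrl or Csn8AKO replicate 2. Nae1, the regulatory subunit of the E1 enzyme, had a value of -0.18 ± 0.11 (adjusted p of 0.231), and Nedd8 one of 0.09 ± 0.08 (adjusted p of 0.430).

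Of the DCN1-like co-E3 proteins in BAT, 1 of 5 rose and 1 of 5 fell, where 16.0% and 15.8% of all genes did. Dcun1d1 (ENSMUSG00000027708, chr3:35892105-35937445), the founding member of the family, stood at 25.4, 25.8, 24.9, 24.2 and 26.9 CPM in Ctrl mice and at 24.4, 20.9, 21.4, 20.1 and 20.6 CPM in Csn8AKO mice. Only Csn8AKO replicate 1 lay within the Ctrl range, and the log2 fold change was -0.24 ± 0.08 with an adjusted p of 0.0292. Dcun1d3 (ENSMUSG00000048787, chr7:119852796-119896298), which is anchored to membranes, stood at 99.1, 135, 86.7, 93.7 and 104 CPM in Ctrl mice and at 148, 168, 124, 114 and 116 CPM in Csn8AKO mice. Ctrl replicate 2 lay within the Csn8AKO range and the other 4 Ctrl libraries lay below it, and the log2 fold change was 0.37 ± 0.13 with an adjusted p of 0.0481. The Dcun1d3 gene overlaps Lyrm1 on the opposite strand by 438 bases, and Lyrm1 was called as well (0.61 ± 0.20, adjusted p of 0.0307). Whether strand was used in counting is not given in the sources used here. Only unambiguous reads were counted, so without use of strand a read over exons of both genes was dropped. The 438 bases are of the gene spans, and the effect of the overlap on either count was not tested. Both calls lay near the threshold. The Dcun1d1 call was lost without Ctrl replicate 2 or 5 or Csn8AKO replicate 3, 4 or 5 (adjusted p of 0.0584, 0.0627, 0.0590, 0.0920 and 0.0768). The Dcun1d3 call was lost in 7 of 10 such fits, with an adjusted p of up to 0.119, the exceptions being those without Ctrl replicate 2 or Csn8AKO replicate 4 or 5. Over the 10 fits the log2 fold changes ran from -0.29 to -0.21 for Dcun1d1 and from 0.27 to 0.48 for Dcun1d3. Dcun1d4 had a log2 fold change of -0.30 ± 0.13 that did not pass the test (adjusted p of 0.0910), and Dcun1d2 and Dcun1d5 had values of -0.03 ± 0.10 and 0.08 ± 0.08.

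Of the exchange factors, the NEDD8 protease and the inhibitors in BAT, 1 of 5 rose and 1 of 5 fell (16.0% and 15.8% of all genes). Senp8 (ENSMUSG00000051705, chr9:59734259-59750710) had the largest change of the 32 genes. It stood at 5.09, 4.66, 4.71, 4.56 and 4.40 CPM in Ctrl mice and at 2.82, 3.04, 2.75, 2.42 and 2.57 CPM in Csn8AKO mice. All 5 Csn8AKO libraries lay below all 5 Ctrl libraries, and Senp8 fell by 42.0%, a log2 fold change of -0.79 ± 0.13 with a 95% interval of -1.06 to -0.51 and an adjusted p of 0.000361. The Senp8 counts were small, with at least 77 reads in each BAT library. Cand1 (ENSMUSG00000020114, chr10:119199255-119240055), the exchange factor of the background above, stood at 70.1, 72.2, 72.5, 72.4 and 74.9 CPM in Ctrl mice and at 76.5, 87.6, 88.5, 83.7 and 81.3 CPM in Csn8AKO mice. Each Csn8AKO library lay above each Ctrl library, and the log2 fold change was 0.21 ± 0.07 with an adjusted p of 0.0293. The Cand1 call was lost without Ctrl replicate 1, 2 or 3 or Csn8AKO replicate 3 or 4 (adjusted p of 0.0632, 0.0629, 0.0601, 0.0630 and 0.0550). Cand2, its paralog of muscle, was low and variable, with 1.84 to 5.32 CPM in Ctrl mice and 0.986 to 4.91 CPM in Csn8AKO mice. Glmn, which masks the E2 site of RBX1, had a value of -0.31 ± 0.18 (adjusted p of 0.212), and Nub1, which directs NEDD8 conjugates to the proteasome, one of -0.00 ± 0.09.

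Of the substrate receptors in BAT, 1 of 3 rose and 1 of 3 fell, where 16.0% and 15.8% of all genes did. Keap1 (ENSMUSG00000003308, chr9:21229730-21239361), the CUL3 receptor that binds NRF2, stood at 51.0, 45.4, 48.8, 43.5 and 50.1 CPM in Ctrl mice and at 34.5, 31.5, 39.5, 33.9 and 39.4 CPM in Csn8AKO mice. The Keap1 groups did not overlap, and the log2 fold change was -0.42 ± 0.08 with an adjusted p of 0.00158. The antisense gene Gm16754, whose span shares 3317 bases with Keap1, was lower too (-0.62 ± 0.22, adjusted p of 0.0404), and the effect of the overlap on the Keap1 count was not tested. Skp2 (ENSMUSG00000054115, chr15:9111985-9155425) stood at 2.12, 3.18, 2.71, 2.82 and 2.22 CPM in Ctrl mice and at 4.34, 2.96, 4.19, 4.35 and 4.21 CPM in Csn8AKO mice. Csn8AKO replicate 2 lay within the Ctrl range and the other 4 lay above it, and the log2 fold change was 0.62 ± 0.16 with an adjusted p of 0.0103. The Skp2 span shares 14876 bases with Lmbrd2 on the opposite strand, which held 23073 reads over all libraries against 2518 for Skp2, and the value of Lmbrd2 in BAT was 0.04 ± 0.10 (adjusted p of 0.833). Btrc, the F-box receptor of the inhibitors of NF-kappa B, had a value of -0.12 ± 0.10 (adjusted p of 0.373).

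**Figure D3:**
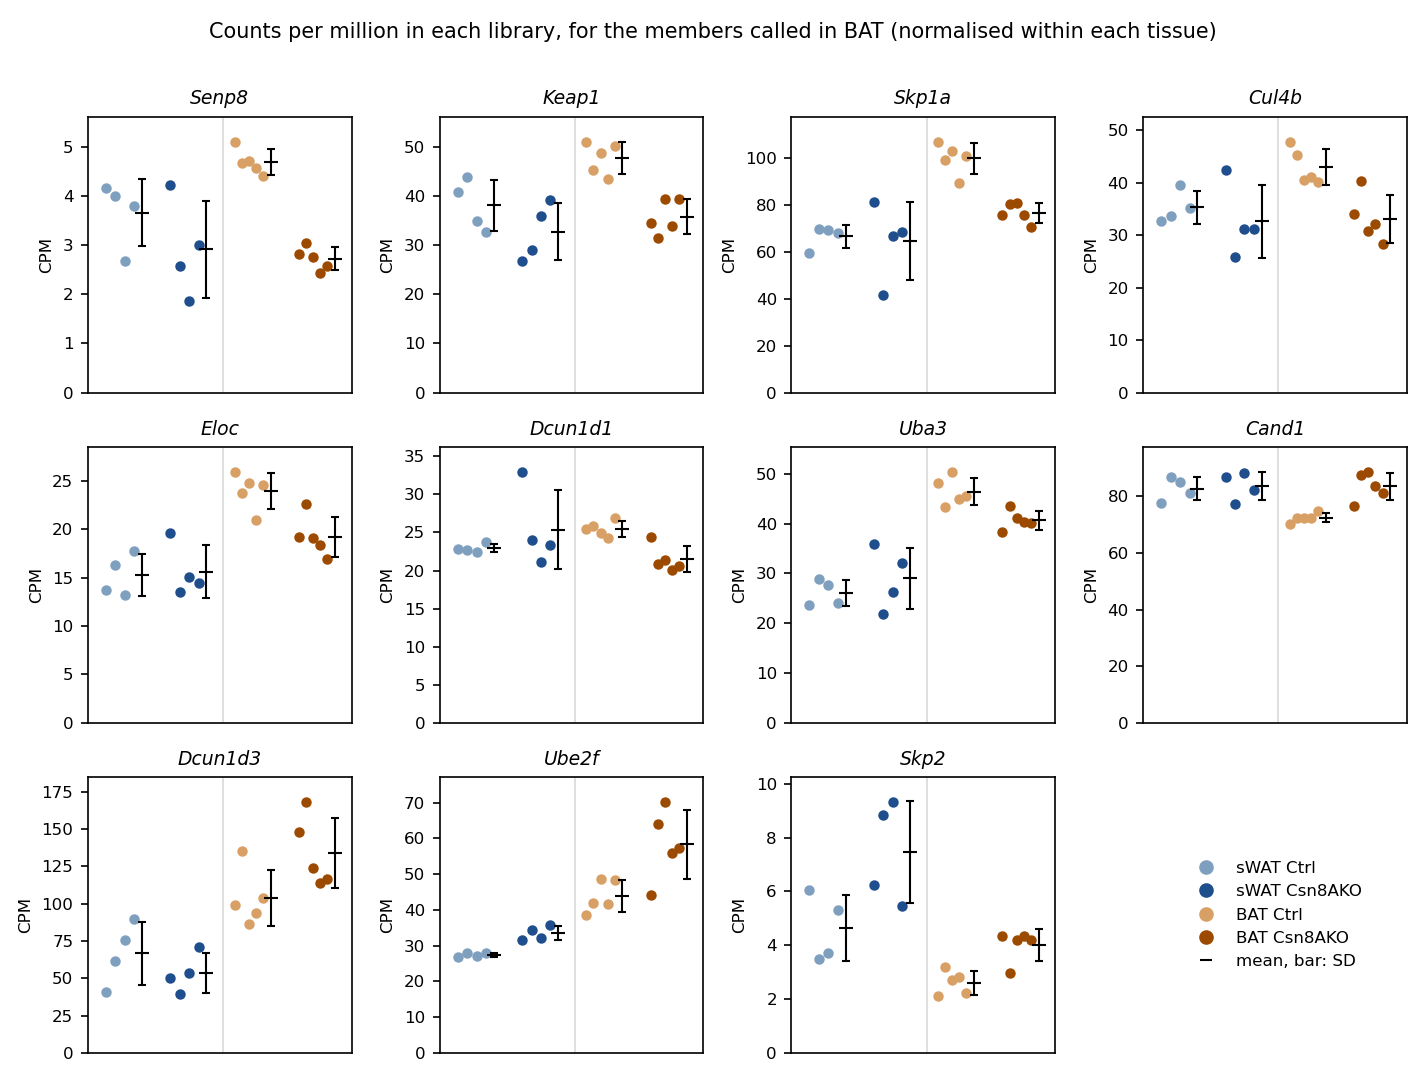
CPM in each library (y axis, from 0) of the 11 genes called in BAT, with 1 point per mouse, the mean and an SD bar for each of the 4 groups, ordered from the largest decrease to the largest increase in BAT. The BAT groups of Senp8, Keap1, Skp1a and Cand1 do not overlap, and those of the other 7 genes share at least 1 library.

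The calls in BAT were not equally firm. Senp8 and Ube2f were called in all 21 alternative fits, Keap1 and Skp1a in 20, Cul4b and Skp2 in 18, Eloc in 14, Cand1 and Dcun1d1 in 12, Dcun1d3 in 8 and Uba3 in 5. None of the 11 genes changed its direction in any of the 21. Leaving out 1 library at a time left 7 to 12 genes of the set called, with 7 without Csn8AKO replicate 3 or 4. Of all genes, 5723 to 8146 were called in these fits. In every such fit 6 genes of the set were called, namely Cul4b, Keap1, Senp8, Skp1a, Skp2 and Ube2f.

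Markers of other cells moved with the genotype in BAT. The summed CPM of 10 macrophage markers ran from 119 to 164 in Ctrl mice and from 379 to 523 in Csn8AKO mice, with 9 called higher and 0 lower. That of 7 fibroblast and progenitor markers ran from 1049 to 1828 and from 2787 to 4703, with 7 called higher and 0 lower. Neither list had a marker near 0, and both sums gave an exact two-sided permutation p of 0.00794, the smallest that 5 against 5 libraries allow (0.0258 after adjustment over 13 library measures). The sum of 8 T cell markers was 3.24 to 4.88 in Ctrl mice and 7.24 to 13.2 in Csn8AKO mice, with 4 called higher and 0 lower and a mean under 0.5 CPM for 3 of the 8. That of 8 neutrophil markers was 1.44 to 2.46 and 2.72 to 4.60, also without overlap and with the same p, with 1 called higher, 0 lower and a mean under 0.5 CPM for 7 of the 8. Of 7 endothelial markers, 3 were called higher and 0 lower, and their sums overlapped. The 10 adipocyte markers overlapped, at 14281 to 17026 and 13289 to 16094 CPM, with 0 called higher and 2 lower, and the 8 proliferation markers ran from 9.43 to 24.5 and from 23.0 to 61.3 CPM, with 6 called higher and 0 lower. When lymphocyte markers (B and T cell genes together) were added to the fit, of which the T cell part differed between genotypes, Keap1, Senp8, Skp1a and Ube2f were still called, 4 genes in all. With skeletal muscle markers in the fit instead, 6 were called, namely Skp1a, Ube2f, Dcun1d1, Cand1, Senp8 and Keap1, where 5169 of all 22345 genes were called. Fewer of all genes were called in both fits than the 7121 without a covariate, so these counts are no result about the set. The part of the macrophage, fibroblast, neutrophil, endothelial, adipocyte and proliferation lists in these values was not tested. Csn8AKO replicates 1 and 5 had the most skeletal muscle markers. Without both of them 7 genes of the set were called, where 5303 of all 23109 genes were called. Cul4b was among the 7 (adjusted p of 0.0495) but not Skp2 (0.0615), whose log2 fold change was then 0.56 against 0.62 with all libraries.

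**Figure D4:**
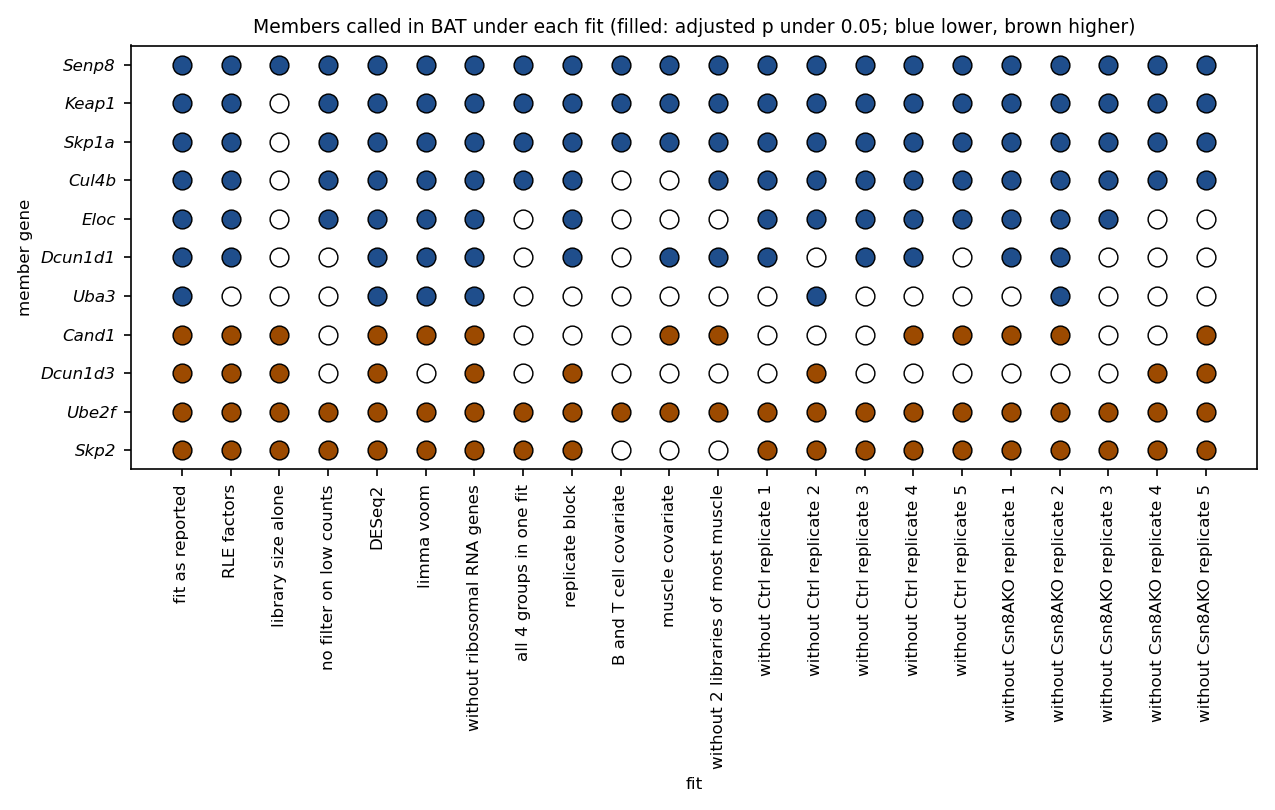
Call of each of the 11 genes (y axis) under the fit reported in the text and 21 alternative fits (x axis), with filled points for an adjusted p under 0.05, blue for lower and brown for higher in Csn8AKO mice. The rows of Senp8 and Ube2f are filled throughout, and that of Uba3 is filled in 5 of the 21 alternatives.

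A fit over all 18 libraries tested whether the genotype change differed between the tissues (the interaction term). None of the 32 genes was called, with 0 by edgeR, DESeq2 and limma voom and with 3, 3 and 6 at an unadjusted p under 0.05. By edgeR and limma voom, 3439 and 4282 of all 22509 genes tested had such a p. By edgeR, 532 of them were called (2.36%), 68.0% of these with the more positive change in BAT (92.7% with libraries scaled by size alone). The genes called in BAT alone were therefore not shown to differ from sWAT. For Senp8 the difference of the log2 fold changes, BAT minus sWAT, was -0.48 with a 95% interval of -1.08 to 0.12, and for Ube2f it was 0.12 with an interval of -0.23 to 0.46. The lowest adjusted p was that of Dcun1d1, 0.212, with a difference of -0.41 ± 0.16, and the largest difference in size was that of Dcun1d3, 0.68 ± 0.30 with an adjusted p of 0.274. Without sWAT Csn8AKO replicate 2, which had the most T cell markers, 1 gene of the set was called for the difference, Skp1a, with an adjusted p of 0.0339. Of all 22982 genes tested in that fit, 720 were called, so the 1 call is no result about the set. In sWAT Csn8AKO replicate 2, Skp1a stood at 41.6 CPM, against 66.9 to 81.1 CPM in the other 3 libraries of its group. Of the 11 genes called in BAT, 7 had the same sign in sWAT, and of all 32 genes, 21 did. The share over all genes was not computed, so these counts are no result about the set.

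The subunits of the CSN, with the targeted gene Cops8 among them, and further partners of cullin ligases were followed as lists of 10 and 18 genes. In sWAT 0 of 10 and 0 of 18 were called by edgeR, with 0 and 2 at an unadjusted p under 0.05, where 3838 of all 18843 genes had such a p. In BAT, 3 of the 10 CSN genes were called, 1 higher and 2 lower, with the targeted gene Cops8 among the 2. The share was near the 31.9% of all genes and so is no result about the CSN list. Gps1, which encodes CSN1, had a value of 0.21 ± 0.07 (adjusted p of 0.0321). Cops7a, 1 of a pair of alternative seventh subunits, had one of -0.37 ± 0.07 (adjusted p of 0.000748), the largest of the list. Beside Cops7a only Cops8 was called lower. Cops7a stood at 90.9 to 103 CPM in Ctrl mice and 71.6 to 77.0 CPM in Csn8AKO mice, without overlap. Cops5, the catalytic subunit that cleaves NEDD8 from cullins, had a value of 0.08 ± 0.10 in BAT and -0.06 ± 0.15 in sWAT. In sWAT the largest value of the CSN list was again that of Cops7a, -0.23 ± 0.14 with an adjusted p of 0.410.

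Of the 18 partners in BAT, 3 rose and 2 fell, where 16.0% and 15.8% of all genes did, so the count is no result about the list. Obsl1 and Ccdc8, which form a complex with CUL7, rose most. Obsl1 stood at 13.0, 14.6, 10.7, 11.8 and 12.7 CPM in Ctrl mice and at 28.6, 22.4, 23.1, 27.4 and 32.5 CPM in Csn8AKO mice, a log2 fold change of 1.09 ± 0.12 with an adjusted p of 1.42e-05. Ccdc8 went from a mean of 2.05 ± 0.370 to 3.93 ± 0.731 CPM (SD, n = 5 each), a log2 fold change of 0.94 ± 0.18 with an adjusted p of 0.00114. Neither group pair overlapped, whereas the value of Cul7 itself was 0.11 ± 0.11 (adjusted p of 0.483). In sWAT the values of Obsl1 and Ccdc8 were 0.42 ± 0.17 and 0.48 ± 0.28, with adjusted p of 0.205 and 0.381. Anapc2, the cullin-like subunit of the anaphase-promoting complex, rose by 0.29 ± 0.06 on the log2 scale in BAT (adjusted p of 0.00300). Det1, a component of a CUL4 ligase with DDB1, fell by 0.53 on the log2 scale (SE 0.12, adjusted p of 0.00308), and Ube2r2, a ubiquitin E2 enzyme of the SCF ligases, by 0.23 (SE 0.08, adjusted p of 0.0436). Fibroblast and progenitor markers, given above, were higher in the same libraries, and their part in the values of Obsl1 and Ccdc8 was not tested.

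Between the highest and the lowest of the 32 transcripts, levels differed by 79.4-fold in sWAT Ctrl and by 164-fold in BAT Ctrl mice, while no member differed between genotypes by more than 1.73-fold in BAT. Per kilobase of exon and with all 18 libraries scaled together, the mean level in sWAT Ctrl mice ran from 0.569 ± 0.142 CPM for Skp2 to 45.2 ± 4.73 CPM for Ddb1 (SD, n = 4), with a median of 6.90. In BAT Ctrl mice it ran from 0.343 ± 0.0575 CPM for Skp2 to 56.1 ± 4.60 CPM for Ube2m (SD, n = 5), with a median of 8.34, and Ddb1 came next at 52.8 ± 2.16 CPM, within 1 SD of Ube2m. Ddb1, Elob, Skp1a, Nedd8, Ube2m and Rnf7 held the 6 highest means in Ctrl mice of both tissues. Senp8 was among the 4 lowest in both, with 0.892 ± 0.163 and 1.22 ± 0.0728 CPM per kilobase. The RING protein Rnf7 exceeded Rbx1 by 2.93-fold per kilobase in sWAT Ctrl and by 4.17-fold in BAT Ctrl mice, and Nae1 stood at 0.610 and 0.317 of the level of its E1 partner Uba3. Levels compared between genes depend on the exon length assigned to each gene, 1328 bases for Rnf7 and 4551 for Rbx1. Before division by length, the mean CPM of Rnf7 and Rbx1 were 26.0 and 30.4 in sWAT Ctrl mice and 47.2 and 39.0 in BAT Ctrl mice. Which transcripts of a gene the tissues expressed was not examined.

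**Figure D5:**
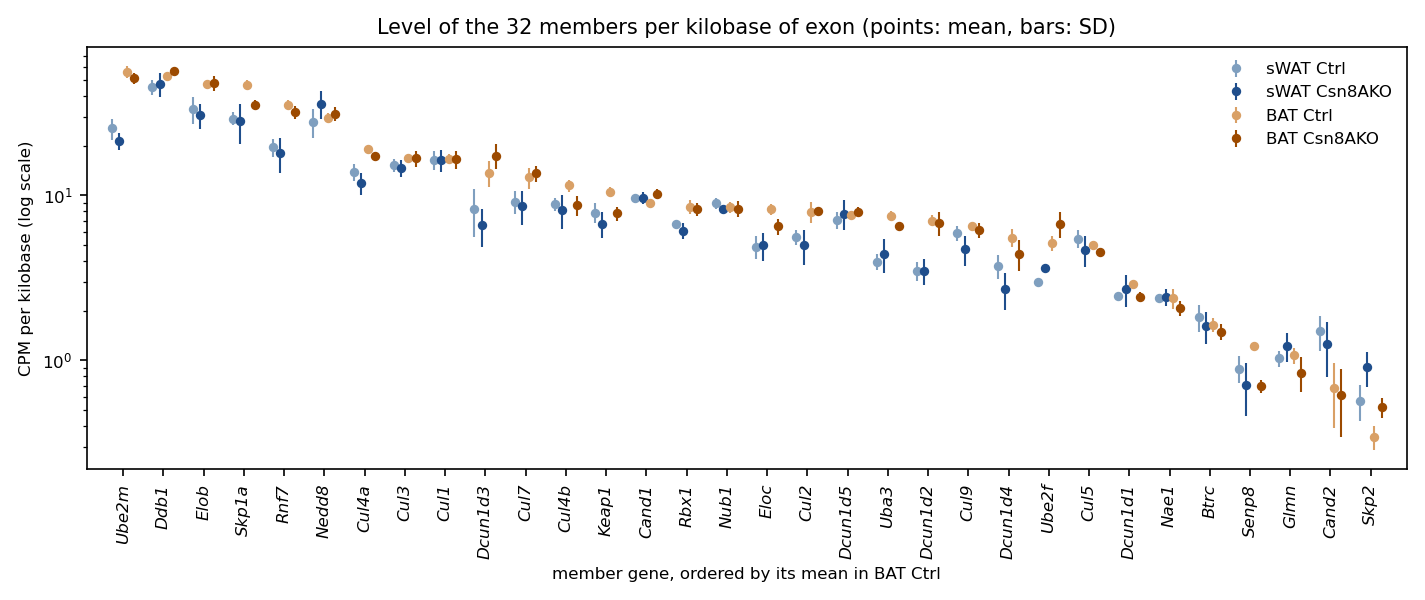
Mean level in CPM per kilobase of exon (y axis, log scale) of each of the 32 genes (x axis, ordered by BAT Ctrl) in the 4 groups, with SD bars. Levels span from 0.343 to 56.1 in BAT Ctrl mice, and the blue sWAT points lie below the brown BAT points for Ube2m, Rnf7, Uba3 and Dcun1d2.

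Between the tissues of Ctrl mice, which also differed in age, 18 of the 32 genes were called (56.3%), against 51.5% of all 22509 genes tested. Of the 32, 16 were higher in BAT, where 25.9% of all genes were, and 2 were lower (6.25%, against 25.7%). Ube2m was higher in BAT by 1.14 ± 0.12 on the log2 scale, Dcun1d2 by 1.01 ± 0.14, Uba3 by 0.93 ± 0.13 and Rnf7 by 0.86 ± 0.14, with the largest of these 4 adjusted p at 2.76e-05. Skp2 and Cand2 were lower in BAT, with log2 differences of -0.73 ± 0.21 and -1.15 ± 0.39 and adjusted p of 0.00579 and 0.0177. Nedd8, Nae1, Cul1 and Cand1 had differences between -0.09 and 0.10, none of them called. These counts leaned on the scaling. With libraries scaled by size alone, the median difference of all genes moved from 0.03 to -0.21, and the genes higher in BAT went from 50.2% to 33.7% of all calls. In that fit 6 of the 32 were called, where 8587 of all 22509 genes were called. Ube2m, Dcun1d2, Uba3 and Rnf7 were higher and Skp2 and Cand2 lower in BAT.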

How the data were processed

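Total RNA from 18 mice was depleted of ribosomal RNA and sequenced as paired reads. Per the labels and the study's methods, the authors aligned the reads with STAR to the primary assembly of Ensembl release 101 and counted uniquely aligned, unambiguous reads per gene with featureCounts. The deposited counts are raw, and the CPM, FPKM and TPM beside them were not used. Samples were grouped by the tissue and genotype of the labels, and ages are those of the study's methods. Nothing in the labels says which libraries share a litter. Of 55487 genes, 55227 were in GENCODE M21, which gave the coding sequences.

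The counts were tested with edgeR 4.0.16 in R 4.3.3 (TMM factors, filterByExpr, quasi-likelihood fits with the robust option, Benjamini-Hochberg adjustment over all genes tested, threshold 0.05). The filter kept genes with a count of about 10, scaled for depth, in at least as many libraries as the smallest group held, and with 15 in sum. The authors used DESeq2, which was run here as an alternative (1.42.0), as were limma voom (3.58.1), RLE factors, size alone, no filter, counts without ribosomal RNA genes, all groups in one fit, marker covariates, a replicate block and each library left out. The 95% intervals are not adjusted for the number of genes. CPM per kilobase used the gene lengths in the files, so levels, shares and ratios compared between genes depend on those lengths. Shares and ratios were computed in Python 3.11.15. For marker sums, depth and ribosomal RNA, exact two-sided permutation tests were run in scipy 1.17.1. The fits were tested on simulated data. No 2 libraries of a group agreed within counting noise.

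The members, lists and tests were chosen with earlier results of these data known. The values of every library are given for each of the 32 genes called in a genotype comparison and for the gene of largest change of each role in each tissue, and the called genes and the gene of largest change are named for each list, as are the genes of highest and lowest level. The ratio of Ube2f to Ube2m was picked after its values were seen. Among the subunit ratios computed, only this one and that of Elob to Eloc are given by genotype. The ranges of the others overlapped between genotypes in both tissues.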

Additional observations from a re-analysis of the deposited data

Results flagged for a closer look

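Of 128 sets of library values tested, each of 1 gene in 1 group, 6 had a highest or lowest library whose gap to the nearest other was too large for the range of the group, where chance gives about 1 in 20. BAT Csn8AKO replicate 2 held 4 of the 6. It was highest for Cul4a at 119.8 CPM (the others 103 to 108), for Elob at 76.1 CPM (60.3 to 64.5) and for Ddb1 at 382 CPM (348 to 353), and lowest for Skp2 at 2.96 CPM (4.19 to 4.35). Without it, 12 genes of the set were called in BAT in place of 11. All genes called rose as well, from 7121 of 22345 to 8146 of 22826, so the 12 is no result about the set. The other values were those of Dcun1d2 in sWAT Ctrl replicate 2, 21.2 CPM against 16.5 to 17.3, and of Dcun1d5 in sWAT Csn8AKO replicate 1, 31.7 CPM against 22.2 to 22.7.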

How the results depend on the processing

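The count of 0 genes of the set called in sWAT held in all 19 alternatives. Scaling by size alone also turned the median of the set in BAT from -0.08 to 0.07. The 11 called in BAT became 5 with libraries scaled by size alone, 7 with no filter on low counts, 6 with all 4 groups in one fit, 4 with B and T cell markers and 6 with skeletal muscle markers as covariate, and 7 without the 2 libraries with most muscle markers, an alternative added after the data were seen. Leaving out each library gave 7 to 12. All genes called in BAT were 7121 of 22345 in the fit reported. In these 6 alternatives, in the same order, they were 6270 of 22345, 6681 of 40085, 5260 of 22509, 3802 of 22345, 5169 of 22345 and 5303 of 23109. With each library left out they were 5723 to 8146. The counts of the set moved beside those of all genes and are no result about the set. All genes called in sWAT, 1000 in the fit reported, were 434 by size alone, 1815 by DESeq2, 2155 by limma voom, 2463 with all groups in one fit, 2158 with the B and T cell covariate, 1820 without the 2 libraries with most lymphocyte markers (added after the data were seen), and 326 to 1477 with each library left out. The count of genes of the set called for the difference between tissues was 0 to 1 with each library left out, where 355 to 720 of all genes were called. That between tissues in Ctrl mice was 6 by size alone, where 8587 of all 22509 genes were called.

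The replicate numbers share no stated origin. Libraries of the same number correlated in their deviations from the group means at -0.43 to 0.25 in sWAT and -0.14 to 0.17 in BAT, so they were not treated as paired. With a replicate block, 299 of all genes and 0 of the set were called in sWAT, and 6776 of all genes and 10 of the set in BAT.

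Among genes of the set named for sWAT, values near 0 changed sign. Cand1, 0.02 in the fit reported, was -0.058 by size alone, -0.0092 without a filter, and -0.018 to 0.054 with a library left out. Eloc (0.04) was -0.028 by size alone and -0.093 to 0.12 with a library left out, Dcun1d1 (0.15) was -0.0081 to 0.21 likewise, and Skp1a (-0.05) was 0.056 with the muscle covariate, 0.069 without the 2 libraries with most lymphocyte markers, and -0.18 to 0.12 with a library left out. None of these 4 was called in any alternative, with adjusted p of at least 0.521 by edgeR, DESeq2 and limma. Depth was lowest in sWAT. The median SE of the 32 log2 fold changes was 0.16 in sWAT against 0.09 in BAT. The part of depth, group size and spread between mice in this difference was not tested.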
